A study of Mus musculus with 32 samples.

Results

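Nlrp4a, Nlrp4b, Nlrp9a, Nlrp9b, Nlrp9c and Nlrp14 are 6 genes of the mouse NLR family that are transcribed in the oocyte. They were taken by name from a deposited table of gene counts in single oocytes, and all 6 of the 6 names were among its 13175 genes. The study asked whether an oocyte keeps its transcripts when its follicle has been vitrified, that is, cooled so fast that no ice forms, and then warmed and grown. All oocytes were labelled WT (wild type) and came from immature preantral mouse follicles grown in encapsulated in vitro culture; the sources used here do not name the strain, nor the mouse and culture behind each oocyte. Metaphase II (MII) oocytes, the ovulated eggs, were collected on day 9 from vitrified follicles (12 oocytes) and from fresh follicles (12 oocytes) after ovulation had been induced with hCG (human chorionic gonadotropin, which acts like the ovulatory hormone LH); GV oocytes had no hCG in their labels. Germinal vesicle (GV) oocytes, fully grown and still arrested before the first meiotic division, were collected on day 8 from vitrified follicles (4 oocytes) and from fresh follicles (4 oocytes). Each oocyte gave 1 library with cDNA primed on poly(A) tails, and p-values measure the spread between these oocytes, whose sharing of a mouse or a culture dish is not known.

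NLRP proteins carry an ATP-binding NACHT domain and a row of leucine-rich repeats, usually behind a pyrin domain. In innate immune cells some of them, such as NLRP3, recruit the adaptor encoded by Pycard and activate inflammatory caspases. A second branch of the family is expressed mainly in germ cells, has multiplied by gene duplication in rodents, and includes Nlrp5 (Mater), a maternal-effect gene whose product sits in the subcortical maternal complex of the egg. Of the 6 genes described here, Nlrp14 is required in the mouse mother for early embryos to develop, and mouse Nlrp9b is known outside the ovary as a sensor of viral double-stranded RNA in intestinal cells that works with the helicase DHX9. Nlrp4a and Nlrp4b belong to a subfamily of duplicated oocyte genes that also holds Nlrp4c, Nlrp4e and Nlrp4f.

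Total counts ran from 5300208 to 12206512 in vitrified MII oocytes, from 6196976 to 10142902 in fresh MII oocytes, from 11159677 to 16554201 in vitrified GV oocytes and from 10357543 to 17687247 in fresh GV oocytes. Levels are given as CPM, counts scaled to a library total of 1e6, with library sizes corrected by the trimmed mean of M values (TMM), whose median factor was 0.875 in vitrified MII, 1.01 in fresh MII, 1.30 in vitrified GV and 1.32 in fresh GV oocytes. The values of GV oocytes were whole numbers, while 11.7% to 19.7% of the values of each MII oocyte were not whole, so the stages were counted in different ways and the effect of stage cannot be told apart from that of the counting. All 12 oocyte markers in the table, among them Gdf9 and Zp3, had counts in each of the 4 groups. The table held only genes with counts in MII oocytes, so for that stage this was nearly given. It does not mean that their levels were alike in the groups. The summed level of 18 cumulus and granulosa markers was between 64.6 and 243 CPM in all but 2 oocytes: vitrified MII replicate 12 had 624 CPM and fresh MII replicate 11 had 3268 CPM. One vitrified GV oocyte, replicate 1, had fewer detected genes (10708) than the other 7 GV oocytes (11392 to 11910) and was the highest GV oocyte for 5 of the 6 genes. Fold changes that rest on it are given with and without it. Group means, ranks, ratios and correlations include it.

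The copies resemble one another, which bears on how well a read can be assigned. All 6 genes lie on chromosome 7 and code for proteins. On GRCm38, in the GENCODE M21 annotation, Nlrp4a spans chr7:26435113-26476142 (plus strand, 11 exons in the transcript used), Nlrp4b chr7:10687789-10730168 (plus, 9 exons), Nlrp9a chr7:26535023-26575615 (plus, 10 exons), Nlrp9b chr7:19991465-20073306 (plus, 10 exons), Nlrp9c chr7:26322473-26403700 (minus, 9 exons) and Nlrp14 chr7:107166990-107198102 (plus, 11 exons). Nlrp9c, Nlrp4a and Nlrp9a follow one another in that order along the chromosome, while Nlrp14 stands far from the others. Coding sequences aligned end to end were identical at 87.5% of aligned bases between Nlrp9a and Nlrp9c, 83.5% between Nlrp9a and Nlrp9b, 82.3% between Nlrp9b and Nlrp9c, and 78.1% between Nlrp4a and Nlrp4b. Nlrp4b was not the closest copy of Nlrp4a, which was identical at 86.3% of aligned bases with Nlrp4c, 85.9% with Nlrp4e and 83.5% with Nlrp4f. Nlrp14 shared 54.4% to 57.5% of aligned bases with the other 5 genes, and the Nlrp4 genes shared 54.4% to 56.5% with the Nlrp9 genes.

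The longest coding run shared exactly by Nlrp9a and Nlrp9b had 129 bases, coding bases 589 to 717 in both genes, at chr7:26557547-26557675 (plus strand) in exon 3 of Nlrp9a and at chr7:20023428-20023556 (plus strand) in exon 3 of Nlrp9b. It is shown because a read that falls inside it cannot be told apart between the 2 genes. Nlrp9c differs from it at 12 bases, set in capitals, at chr7:26385436-26385564 (minus strand) in exon 2.
Nlrp9a and Nlrp9b: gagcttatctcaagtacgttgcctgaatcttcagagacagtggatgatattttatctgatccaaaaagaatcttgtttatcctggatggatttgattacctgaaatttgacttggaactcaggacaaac
Nlrp9c: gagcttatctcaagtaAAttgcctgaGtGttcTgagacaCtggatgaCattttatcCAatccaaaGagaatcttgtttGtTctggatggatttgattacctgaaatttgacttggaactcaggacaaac

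Between Nlrp4a and Nlrp4b the longest exact coding run had 34 bases. It is shown as the counterpart of the Nlrp9 run and lies at chr7:26449951-26449984 (plus strand) in exon 4 of Nlrp4a and at chr7:10714838-10714871 (plus strand) in exon 4 of Nlrp4b, and Nlrp4c has 3 other bases there, in capitals.
Nlrp4a and Nlrp4b: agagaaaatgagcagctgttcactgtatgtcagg
Nlrp4c: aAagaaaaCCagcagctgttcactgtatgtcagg

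Every window of a fixed length was taken from 1 transcript of each gene and looked up in all annotated transcripts of other genes, on both strands. At 100 bases, 1.36% of the windows of Nlrp9b, 0.927% of those of Nlrp9a and 0.449% of those of Nlrp9c were found in another gene, in each case in another Nlrp9 copy, and 0% of those of Nlrp4a, Nlrp4b and Nlrp14. At 50 bases the shares were 6.54% for Nlrp9a, 6.22% for Nlrp9b, 4.99% for Nlrp9c, 3.11% for Nlrp4a and 0% for Nlrp4b and Nlrp14. The matches of Nlrp4a at 50 bases were spread over 520 other genes. For comparison, the paralog Nlrp4e, which is not among the 6, shared 11.5% of its windows at 100 bases. The sources used here do not state the read length or how reads with several matches were handled. The 1 other annotated gene with exon bases over a member was Gm18877, which overlaps 136 exon bases of Nlrp9b on the same strand and is not in the table.

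**Figure D1:**
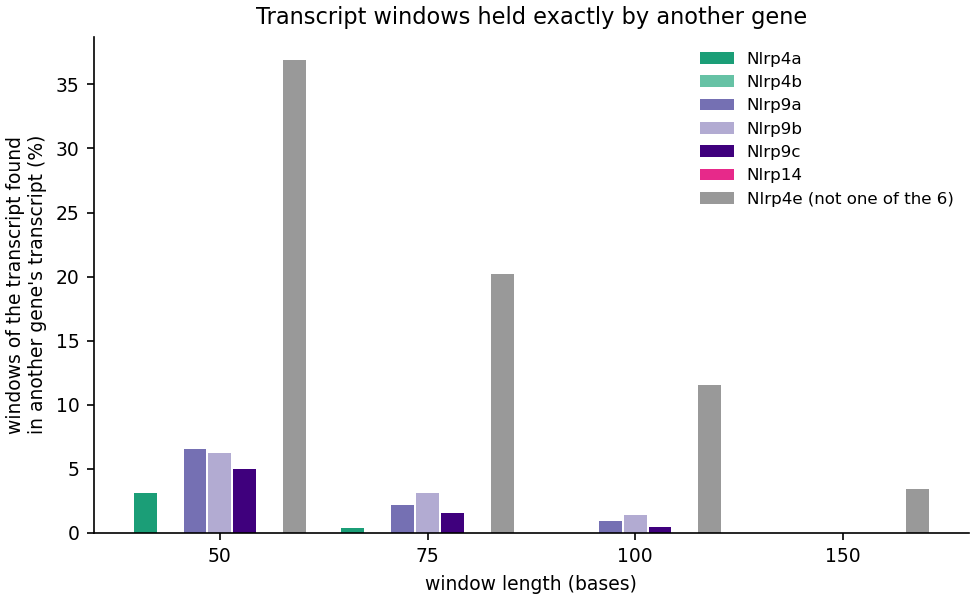
Bars give the percentage of a transcript's windows (y axis) that are found letter for letter in a transcript of another gene, for 4 window lengths in bases (x axis). Nlrp4b and Nlrp14 stand at 0 throughout, the Nlrp9 genes stay under 7%, and Nlrp4e is drawn as an example of a copy with more shared sequence (36.9% at 50 bases).

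In MII oocytes the deposited values of 5 of the 6 genes were not whole in most libraries, counting any fraction as deposited: 23 of 24 for Nlrp4b and for Nlrp9c, 22 for Nlrp9a and for Nlrp14, and 20 for Nlrp4a. Nlrp9b was whole in all but 3 of the 24, and its values lay at most 0.01 from a whole number. Counting only values more than 0.05 from a whole number, there were 20 of 24 for Nlrp9c, 19 for Nlrp4a and for Nlrp4b, 17 for Nlrp9a, 15 for Nlrp14 and 0 for Nlrp9b. Of all genes, 61.7% were whole in every MII oocyte. The part of the counting step in the levels of these genes was not tested.

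Nlrp4a was higher in MII than in GV oocytes after both kinds of culture. It had 1108 CPM in the lowest, 1642 in the median and 2344 in the highest vitrified MII oocyte, against 574, 391, 274 and 419 CPM in vitrified GV oocytes 1 to 4. In fresh follicles the lowest, median and highest MII oocyte had 761, 1458 and 1845 CPM, against 427, 341, 446 and 231 CPM in GV oocytes 1 to 4. Every MII oocyte lay above every GV oocyte of its treatment. Across all 13175 genes the same held for 11.5% in vitrified and 10.9% in fresh follicles.

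Nlrp4b, the other Nlrp4 gene of the 6, showed the same split. Its lowest, median and highest vitrified MII oocytes had 621, 984 and 1661 CPM, against 549, 228, 143 and 236 CPM in vitrified GV oocytes 1 to 4. Fresh MII oocytes had 558, 886 and 1476 CPM, against 197, 135, 228 and 116 CPM in fresh GV oocytes 1 to 4. The stages again did not overlap in either treatment, with vitrified GV oocyte 1 just below the lowest vitrified MII oocyte. In all 32 oocytes Nlrp4a was above Nlrp4b, with a ratio of 1.62 ± 0.19 in vitrified MII, 1.53 ± 0.26 in fresh MII, 1.61 ± 0.39 in vitrified GV and 2.16 ± 0.26 in fresh GV oocytes (SD, n = 12, 12, 4 and 4).

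Nlrp9a and Nlrp9c, the closest pair of copies, were also at their highest in MII oocytes. Nlrp9a had 733, 1271 and 2184 CPM in the lowest, median and highest vitrified MII oocyte, against 975, 295, 249 and 363 CPM in vitrified GV oocytes 1 to 4. The fresh MII oocytes gave 651, 1128 and 1940 CPM, against 299, 221, 203 and 273 CPM in fresh GV oocytes 1 to 4. The fresh stages did not overlap, and in vitrified follicles 10 of 12 MII oocytes were above every GV oocyte, the overlap being due to GV oocyte 1 alone.

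Nlrp9c had 1023, 1464 and 2360 CPM in the lowest, median and highest vitrified MII oocyte, against 1453, 461, 169 and 530 CPM in vitrified GV oocytes 1 to 4. In fresh follicles its MII oocytes ranged over 928, 1328 and 2156 CPM, against 361, 305, 598 and 260 CPM in GV oocytes 1 to 4. Here too the fresh stages were apart, while GV oocyte 1 of the vitrified group stood among the MII oocytes and left 7 of 12 MII oocytes above it.

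Nlrp9b, the third copy, was different: its stages overlapped in both treatments. It had 124, 207 and 320 CPM in the lowest, median and highest vitrified MII oocyte, against 179, 182, 160 and 219 CPM in vitrified GV oocytes 1 to 4. Fresh MII oocytes had 126, 199 and 377 CPM, against 159, 176, 133 and 186 CPM in fresh GV oocytes 1 to 4. Vitrified GV oocyte 1, which was the highest GV oocyte for the other 5 genes, was not high for Nlrp9b.

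Nlrp14 had the highest level of the 6 genes in GV oocytes. Its lowest, median and highest vitrified MII oocytes had 640, 1203 and 2550 CPM, against 2785, 1445, 1218 and 2018 CPM in vitrified GV oocytes 1 to 4. Fresh MII oocytes had 768, 1665 and 3650 CPM, against 1303, 919, 990 and 1629 CPM in fresh GV oocytes 1 to 4. In vitrified follicles 6 of 12 MII oocytes lay below all 4 GV oocytes and none above them, and in fresh follicles 2 lay below and 6 above.

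**Figure D2:**
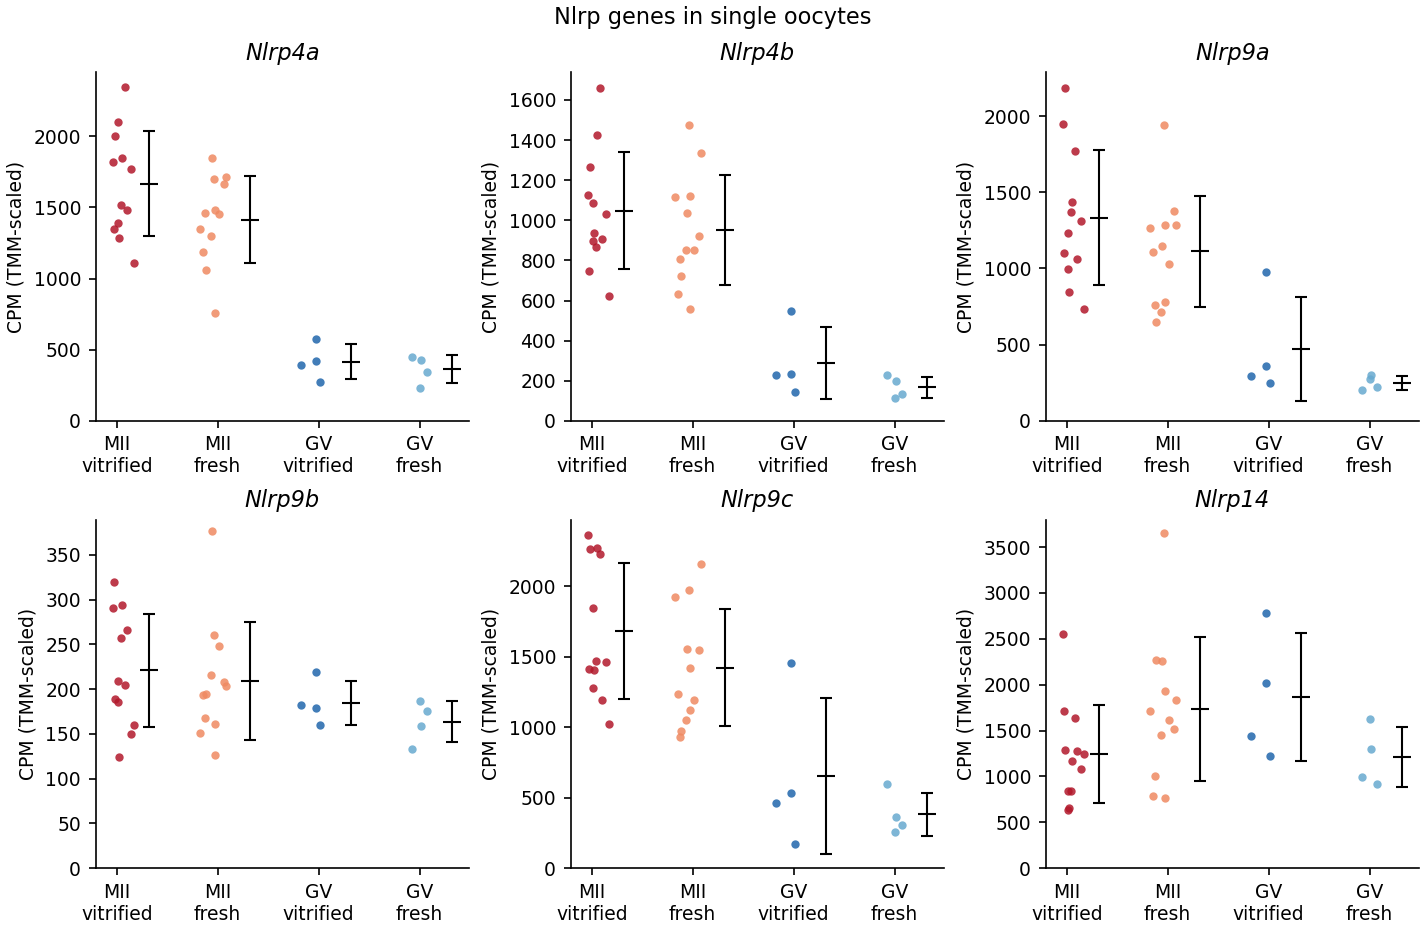
CPM with TMM-scaled library sizes (y axes, from 0) of the 6 genes in each oocyte of the 4 groups (x axes). Points are oocytes and black marks are the mean with its SD (n = 12, 12, 4 and 4 from left to right). Nlrp4a, Nlrp4b, Nlrp9a and Nlrp9c stand higher in MII oocytes, the groups of Nlrp9b overlap between 124 and 377 CPM, and 1 vitrified GV oocyte is high in all panels but that of Nlrp9b.

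In rank among the 13175 genes, 5 of the 6 were abundant transcripts of the egg. By mean CPM Nlrp9c was 89th and 94th in vitrified and fresh MII oocytes and 166th and 365th in vitrified and fresh GV oocytes. Nlrp4a was 91st and 95th in MII and 331st and 392nd in GV oocytes, in the same order of treatments. Nlrp14 went the other way in rank, at 123rd and 79th in MII and 38th and 64th in GV oocytes. Its mean CPM was lower in MII than in GV oocytes only in vitrified follicles (1245 against 1867). In fresh follicles it was higher (1733 against 1210), and neither difference passed the test. Nlrp9b stayed between 921st and 1068th in all 4 groups.

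To compare genes with each other, CPM was divided by the length of each gene's exons in kilobases (kb). In MII oocytes Nlrp9b was the lowest per length, at 59.3 ± 17.0 CPM per kb in vitrified and 56.1 ± 17.6 in fresh oocytes (SD, n = 12 each). The next gene up, Nlrp4b, was higher in all 12 oocytes of each group, at 233 ± 64.9 and 212 ± 61.4. With all exons as the length the top places were not separated: in vitrified MII oocytes Nlrp9a had 382 ± 127, Nlrp14 352 ± 151 and Nlrp4a 344 ± 76.7, and in fresh MII oocytes Nlrp14 had 490 ± 222 and Nlrp9a 319 ± 104 CPM per kb.

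In GV oocytes Nlrp14 led, with 528 ± 198 CPM per kb in vitrified and 342 ± 92.0 in fresh oocytes (SD, n = 4 each). It was above the next gene in all 4 oocytes of each GV group, Nlrp9a at 135 ± 97.6 in the vitrified and Nlrp4a at 74.7 ± 20.3 in the fresh group. Below Nlrp14, with all exons as the length, the neighbours in the fresh GV order, Nlrp4a, Nlrp9a, Nlrp9c, Nlrp9b and Nlrp4b, did not differ beyond the spread of their ratio between oocytes. With the longest transcript in place of all exons Nlrp9c moved to the first place in vitrified MII oocytes (523 CPM per kb), above Nlrp9a in all 12 oocytes. It then also stood above Nlrp4a in all 4 fresh GV oocytes, and Nlrp9a above Nlrp4b in 3 of 4, both by more than the SD of their log2 ratio between oocytes. Nlrp14 in GV and Nlrp9b in MII oocytes kept their places.

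The share of Nlrp9b in the summed Nlrp9 CPM was lower in MII than in most GV oocytes. This follows from the levels above and is no separate result, because Nlrp9a and Nlrp9c were higher in MII oocytes and Nlrp9b was not called. Nlrp9b gave 4.07%, 6.84% and 11.3% of the summed Nlrp9 CPM in the lowest, median and highest vitrified MII oocyte, against 6.86%, 19.4%, 27.7% and 19.7% in vitrified GV oocytes 1 to 4. In fresh MII oocytes it gave 4.51%, 7.12% and 12.2%, against 19.4%, 25.03%, 14.3% and 25.9% in fresh GV oocytes 1 to 4. The stages did not overlap in fresh follicles. In vitrified follicles they overlapped, with GV oocyte 1 at 6.86% inside the range of the MII oocytes, and only without that oocyte were they apart. The ratio of Nlrp9c to Nlrp9a was 1.29 ± 0.20 in vitrified and 1.31 ± 0.21 in fresh MII oocytes (SD, n = 12 each), against 1.30 ± 0.41 in vitrified and 1.62 ± 0.90 in fresh GV oocytes (SD, n = 4 each). Nlrp9c was above Nlrp9a in all 24 MII oocytes and in 3 of 4 GV oocytes of each treatment.

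**Figure D3:**
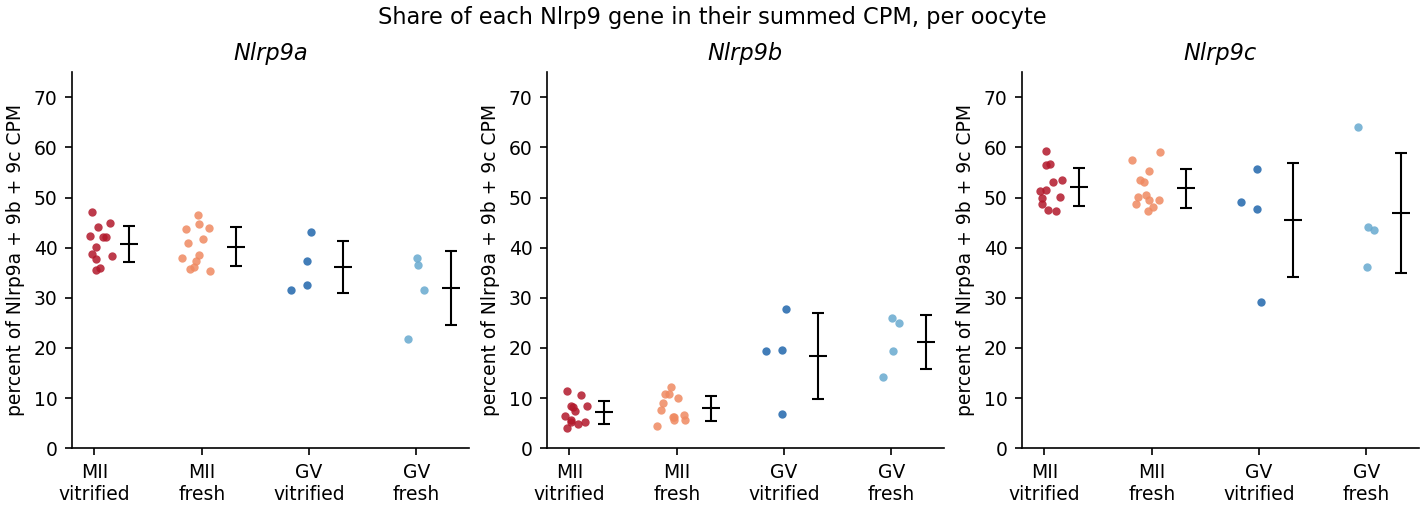
Percentage of the summed CPM of the 3 Nlrp9 genes that each gene contributed (y axes), per oocyte, in the 4 groups (x axes). Points are oocytes and black marks the mean with its SD (n = 12, 12, 4 and 4 from left to right). Nlrp9b stays at or under 12.2% in MII oocytes and lies between 14.3% and 27.7% in 7 of 8 GV oocytes.

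The upstream window of Nlrp9b had little sequence in common with those of its copies. The 250 bases before the RefSeq starts (GRCm38.p6) of the 3 Nlrp9 genes are shown because 2 of these genes differed between the stages and the other did not pass the test. Any link between these sequences and the levels was not tested. A promoter entry was matched for 5 of the 6 genes; Nlrp14 is named only. Capitals mark CCAAT or its reverse complement ATTGG, the CCAAT box found in many promoters. Nlrp9a is at chr7:26534773-26535022 (plus strand), Nlrp9c at chr7:26403701-26403950 (minus strand) and Nlrp9b at chr7:20007773-20008022 (plus strand). The Nlrp9a and Nlrp9c windows end at the outer edge of the GENCODE genes, whereas the RefSeq start of Nlrp9b lies 16558 bases inside its GENCODE span, so its window may not be the equivalent one.
Nlrp9a: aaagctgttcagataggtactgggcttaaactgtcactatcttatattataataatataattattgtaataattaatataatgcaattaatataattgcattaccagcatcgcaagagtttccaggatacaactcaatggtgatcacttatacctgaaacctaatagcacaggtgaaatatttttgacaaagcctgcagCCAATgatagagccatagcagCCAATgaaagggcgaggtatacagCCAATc
Nlrp9c: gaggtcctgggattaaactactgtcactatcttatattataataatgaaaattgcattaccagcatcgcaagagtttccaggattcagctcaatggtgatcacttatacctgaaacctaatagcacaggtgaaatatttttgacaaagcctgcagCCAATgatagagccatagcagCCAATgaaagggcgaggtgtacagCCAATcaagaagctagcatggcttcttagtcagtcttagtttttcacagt
Nlrp9b: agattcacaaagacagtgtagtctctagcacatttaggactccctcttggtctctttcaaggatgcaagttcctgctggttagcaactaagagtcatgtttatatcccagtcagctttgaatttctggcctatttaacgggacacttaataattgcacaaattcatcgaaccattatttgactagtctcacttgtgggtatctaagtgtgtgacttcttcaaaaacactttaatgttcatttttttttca

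A local alignment of Nlrp9a with Nlrp9c covered 202 bases, of which 195 were identical (96.5%), and both windows held 3 CCAAT boxes. The best local alignment of Nlrp9b had 20 bases with Nlrp9a and 13 with Nlrp9c, and its window held 0. CCAAT on either strand was present in 33.8% of the 32851 RefSeq windows, so a single box is common.

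Nlrp4a and Nlrp4b had another stretch in common. Before the second RefSeq start of Nlrp4a, and before the starts of Nlrp4b and Nlrp4c, the 12 bases CCAATCACATGG occur, set in capitals below with their surroundings. They are the longest run that upstream windows of the 3 genes share, and hold a CCAAT box followed directly by CACATG, an E-box (CANNTG). The 3 stretches lie at chr7:26435544-26435595, chr7:10687719-10687770 and chr7:6045123-6045160, all on the plus strand of GRCm38.p6.
Nlrp4a: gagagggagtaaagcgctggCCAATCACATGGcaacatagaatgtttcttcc
Nlrp4b: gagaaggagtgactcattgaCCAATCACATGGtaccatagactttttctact
Nlrp4c: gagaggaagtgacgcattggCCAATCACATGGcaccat

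On either strand the 12 bases were found in 6 of the 32851 windows (0.0183%), which belong to 5 genes: Nlrp4a, Nlrp4b, Nlrp4c, Dcxr and Oscp1. The motif was picked after these sequences had been seen, and a match is a description and not a binding site. Its shorter parts are frequent, with CCAAT in 33.8% and CANNTG in 66.2% of windows. The Nlrp4 windows that hold the 12 bases align over most of their length. The Nlrp4a window aligned with the outer Nlrp4b window over 222 bases (79.3% identical) and with that of Nlrp4c over 213 (76.1%). The outer Nlrp4b window aligned with that of Nlrp4c over 208 (74.5%). The 12 bases are thus part of a longer likeness. That Nlrp4a window's start lies 501 bases inside the GENCODE gene. The outer Nlrp4a window lacks the motif and aligned with the outer Nlrp4b window over 14 bases.

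The first comparison asked how the genes differ between ovulated and fully grown oocytes of vitrified follicles. Nlrp4a, Nlrp4b, Nlrp9a and Nlrp9c rose, 4 of 6 genes, where 23.3% of 11470 tested genes were called higher and 57.0% were called in either direction. Here and below, a gene that rose or fell changed its share of the counts primed on poly(A) tails. The amount of transcript per oocyte and the length of its tail were not tested. The log2 fold change of MII over GV was 2.01 ± 0.24 for Nlrp4a (adjusted p = 8.40e-09 in the quasi-likelihood test of edgeR; all errors of fold changes are standard errors). It was 1.86 ± 0.30 for Nlrp4b (edgeR adjusted p = 2.76e-06). Nlrp9a rose by 1.50 ± 0.32 (edgeR adjusted p = 1.52e-04) and Nlrp9c by 1.37 ± 0.34 (edgeR adjusted p = 0.00100). Without GV oocyte 1 the values were 2.22, 2.39, 2.15 and 2.14 for these 4 genes in turn, and all 4 stayed past the threshold.

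Nlrp9b and Nlrp14 did not pass. Nlrp9b differed by 0.26 ± 0.23 (edgeR adjusted p = 0.361), and by −0.24 without scaling of library sizes. Nlrp14 differed by −0.58 ± 0.31 (edgeR adjusted p = 0.110), was called lower without scaling (−1.02, adjusted p = 0.00374) and without MII replicate 10 (−0.75, adjusted p = 0.0305), and stood at −0.31 without GV oocyte 1.

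In fresh follicles the same 4 genes rose, where 22.8% of 11470 genes were called higher and 52.6% in either direction. Nlrp4b had the largest change of the 6, 2.50 ± 0.32 (edgeR adjusted p = 3.21e-08). Nlrp9a followed with 2.16 ± 0.34 (edgeR adjusted p = 1.51e-06), Nlrp4a with 1.97 ± 0.24 (edgeR adjusted p = 1.48e-08) and Nlrp9c with 1.90 ± 0.36 (edgeR adjusted p = 3.04e-05).

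Nlrp9b differed by 0.35 ± 0.23 (edgeR adjusted p = 0.210) in fresh follicles, by −0.04 without scaling, and by 0.71 (adjusted p = 0.0341) where the MII oocytes were limited to library numbers of 20 and over. Nlrp14 differed by 0.52 ± 0.33 (edgeR adjusted p = 0.196). The GV libraries carry numbers from 81 to 85 and the MII libraries from 2 to 25, so stage cannot be told apart from library series.

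The scaling matters for the size of these changes, because the median gene itself moved with it. The median log2 fold change of all tested genes was −0.34 with TMM, −0.45 with the size factors of DESeq2 and −0.81 without scaling in vitrified follicles, and −0.23, −0.37 and −0.61 in fresh ones. Relative to that median the 4 genes lay 1.71 to 2.35 higher in vitrified and 2.13 to 2.72 higher in fresh follicles with TMM, and 1.79 to 2.35 and 2.14 to 2.72 higher without scaling. Nlrp9b lay 0.60 and 0.58 above the median with TMM, and 0.57 and 0.56 above it without scaling. A change of scaling moves all genes by nearly the same amount, so these distances to the median could hardly differ. Their likeness is therefore no check of the scaling.

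The next question was whether vitrification of the follicle left a trace in these genes. In ovulated oocytes 0 of the 6 genes passed, as did 0 of 8428 genes tested (0%) with edgeR, 0 with limma-voom and 52 with DESeq2, and 1053 genes (12.5%) had an unadjusted p under 0.05. The difference nearest to the threshold was that of Nlrp14, with a mean of 1245 ± 535 CPM in vitrified and 1733 ± 785 CPM in fresh MII oocytes (SD, n = 12 each). Its log2 fold change was −0.46 ± 0.23 (edgeR adjusted p = 0.415), and its 95% interval ran from −0.94 to 0.01. The other 5 genes were between 0.09 ± 0.17 (Nlrp9b) and 0.27 ± 0.19 (Nlrp9a), with upper limits of 0.43 to 0.66.

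The sign of these small differences was not the same in the 2 library series. In library numbers under 20 (7 oocytes per treatment) the log2 fold change was 0.51 for Nlrp4a, 0.42 for Nlrp4b, 0.62 for Nlrp9a, 0.34 for Nlrp9b and 0.47 for Nlrp9c. In numbers of 20 and over (5 oocytes per treatment) the same 5 genes were at −0.12, −0.26, −0.19, −0.22 and −0.09. Nlrp4a averaged 1778 ± 403 CPM in vitrified and 1262 ± 303 CPM in fresh oocytes of the first series (SD, n = 7 each), and 1514 ± 291 and 1628 ± 163 CPM in the second (SD, n = 5 each). Nlrp14 alone had the same sign in both series, with −0.43 under 20 and −0.54 from 20 on. The difference between the series was not tested.

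In GV oocytes 0 of the 6 genes passed either, as did 0 of 10831 genes (0%) with edgeR, limma-voom and DESeq2; 180 genes (1.66%) and 1 of the 6, Nlrp9a, had an unadjusted p under 0.05. All 6 point estimates of vitrified over fresh were above 0: 0.94 ± 0.42 for Nlrp9a, 0.80 ± 0.53 for Nlrp9c, 0.79 ± 0.41 for Nlrp4b, 0.64 ± 0.34 for Nlrp14, 0.21 ± 0.32 for Nlrp4a and 0.19 ± 0.26 for Nlrp9b (edgeR adjusted p = 1.00 for each). Their median was 0.72, against 0.002 over all genes tested. Without vitrified oocyte 1 the estimates were 0.28 for Nlrp9a, 0.02 for Nlrp9c, 0.26 for Nlrp4b, 0.37 for Nlrp14 and −0.004 for Nlrp4a. With 4 oocytes a group the intervals were wide, the upper limit reaching 1.85 for Nlrp9a and 1.94 for Nlrp9c.

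**Figure D4:**
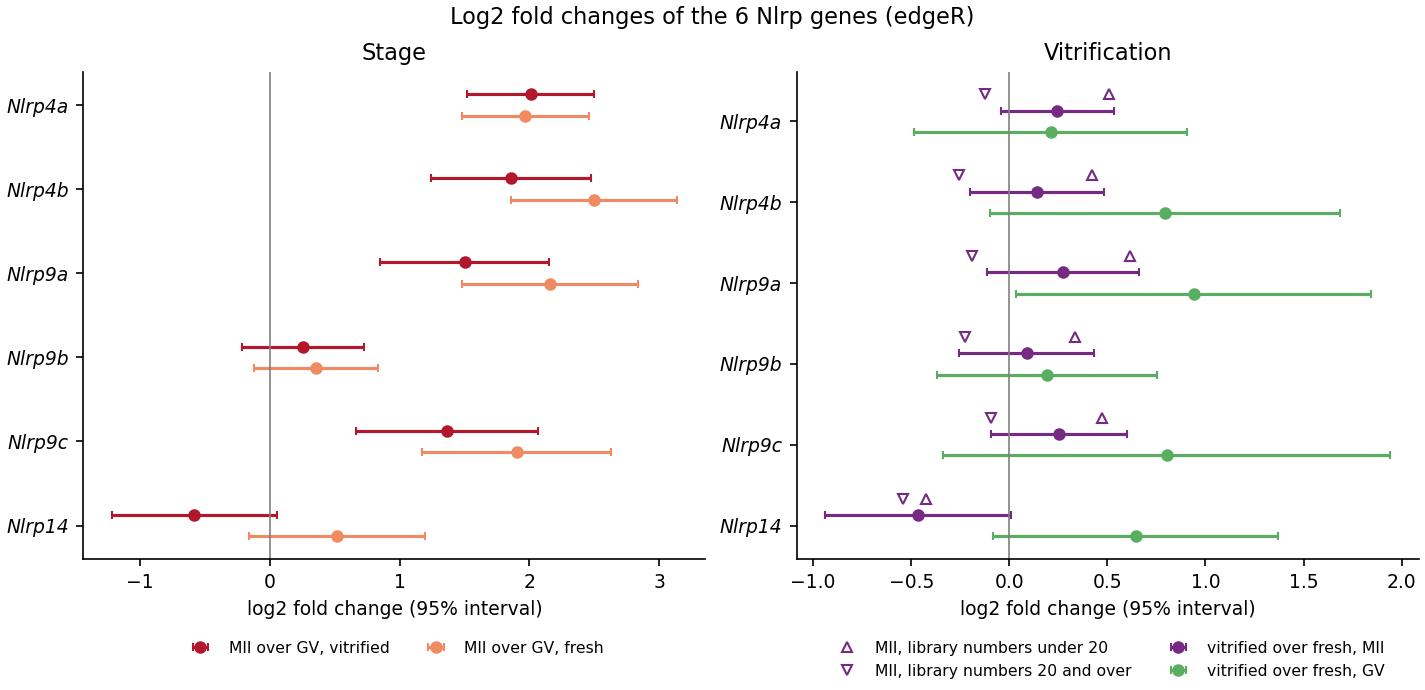
Log2 fold changes of the 6 genes (x axes) with 95% intervals from edgeR, for MII over GV oocytes (left) and for vitrified over fresh follicles (right). Open triangles give the MII comparison within each library series, without intervals. Nlrp4a, Nlrp4b, Nlrp9a and Nlrp9c lie at 1.37 to 2.50 on the left; Nlrp9b at 0.26 and 0.35 falls below 0 without scaling of library sizes; on the right 5 of 6 genes change sign between the series.

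Whether the change from GV to MII depended on vitrification was tested as an interaction over all 32 oocytes. It was called for 0 of the 6 genes and 0 of 11470 genes (0%) with edgeR, for 0 with limma-voom and 8 with DESeq2, and 467 genes (4.07%) had an unadjusted p under 0.05. Nlrp14 was the 1 gene of the 6 under that value, with a difference of −1.10 ± 0.46 between the stage changes (p = 0.0218 unadjusted and 1.00 adjusted, edgeR). Its 95% interval ran from −2.03 to −0.17. The other 5 lay between −0.66 ± 0.41 (Nlrp9a) and 0.04 ± 0.30 (Nlrp4a). These differences moved with vitrified GV oocyte 1: without it they were −0.84 for Nlrp14, −0.0088 for Nlrp9a, −0.11 for Nlrp4b, 0.24 for Nlrp9c (−0.53 ± 0.45 with it) and 0.25 for Nlrp4a.

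Within groups some of these genes varied together from oocyte to oocyte. Correlations were taken over 32 oocytes on log2 CPM after the mean of each group was removed, so the oocytes share their group and each library its depth and scaling, and they are given as a description. Pearson's r was 0.88 between Nlrp4b and Nlrp9c, 0.87 between Nlrp4a and Nlrp4b, and 0.79 between Nlrp9a and Nlrp9c. Nlrp9b had r of 0.15 to 0.46 with the other 5 genes, and Nlrp14 0.20 to 0.46. Among MII oocytes alone (24) r was 0.84, 0.85 and 0.88 for the same 3 pairs.

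**Figure D5:**
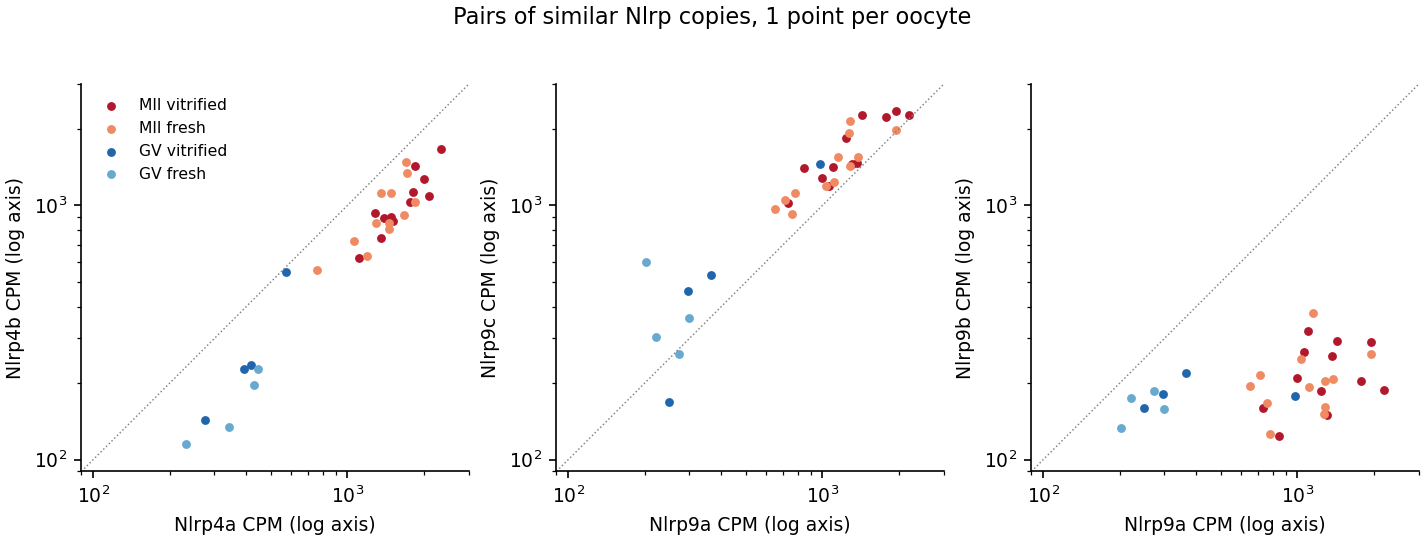
CPM of pairs of similar copies against each other, 1 point per oocyte, both axes logarithmic, with the line of equal values dotted. Nlrp4a and Nlrp4b, and Nlrp9a and Nlrp9c, rise together (r of 0.87 and 0.79 within groups). Nlrp4a is above Nlrp4b in every oocyte and Nlrp9c above Nlrp9a in every MII oocyte, so these points lie to 1 side of the line. Nlrp9b stays between 124 and 377 CPM over the whole range of Nlrp9a (r of 0.29).

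The genes whose level was most like each member, out of 4683 candidates, were chosen by the same r. For Nlrp14 the closest was its relative Nlrp5 (0.79), well ahead of Me1 (0.64) and Srpk1 (0.64). Nlrp4a was closest to Phf20 (0.89), Nlrp4b (0.87) and Nedd1 (0.87), and Nlrp4b to Nlrp9c (0.88), Vps26a (0.88) and Sub1 (0.87). For Nlrp9c they were Fbxw22 (0.93), Hat1 (0.92) and Gtf2h2 (0.89), and for Nlrp9a Cd164 (0.81), Usp15 (0.80) and Tpgs2 (0.80). The closest to Nlrp9b were Pdha1 (0.66), Taf1a (0.63) and Akap12 (0.62). Pdha1 had a lower r than the single closest gene of any other member, though Me1 and Srpk1 had a lower r with Nlrp14.

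Of 7 other oocyte Nlrp genes listed, 5 were in the table. In vitrified follicles Nlrp4f (2.57 ± 0.24) and Nlrp4e (0.88 ± 0.32) rose in MII oocytes and Nlrp2 (−1.44 ± 0.26) fell, while Nlrp5 (0.26 ± 0.41) and Nlrp4c (0.24 ± 0.39) did not pass. In fresh follicles 4 rose, Nlrp4f (2.96 ± 0.25), Nlrp4e (1.29 ± 0.33), Nlrp4c (1.22 ± 0.42) and Nlrp5 (1.16 ± 0.44), and Nlrp2 fell by 0.72 ± 0.27 on the log2 scale. Of all tested genes 23.3% and 22.8% were called higher in vitrified and fresh follicles, and 57.0% and 52.6% in either direction. MII values lay more than 0.05 from a whole number in 24 of 24 oocytes for Nlrp4e and in 23 for Nlrp4f. Nlrp4e also shared 11.5% of its 100-base windows with other genes. The part of the counting step in these changes was not tested. Nlrp4f is a component of the subcortical maternal complex in the mouse. Between vitrified and fresh follicles 0 of these 5 genes passed at either stage.

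Of the 8 genes listed for the subcortical maternal complex, 3 of which are Nlrp genes, 2 rose and 5 fell in vitrified and 3 rose and 5 fell in fresh follicles from GV to MII, where 57.0% and 52.6% of all tested genes were called. Khdc3 and Ooep, which encode its KH-domain proteins, were among those that fell, with log2 fold changes of −4.15 ± 0.38 in vitrified and −3.13 ± 0.37 in fresh follicles for Khdc3, and of −2.99 ± 0.31 and −3.31 ± 0.31 for Ooep. Zbed3, another gene of the complex, rose by 3.24 ± 0.28 and 2.70 ± 0.27.

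Genes tied to the Nlrp14 protein in the mouse were looked at beside it. Of 5 listed, 4 were in the table, and 1 of these, Dnmt1, the maintenance DNA methyltransferase, fell in MII oocytes, with log2 fold changes of −1.82 ± 0.38 in vitrified and −1.18 ± 0.38 in fresh follicles. Among all tested genes, 57.0% in vitrified and 52.6% in fresh follicles were called in either direction, so 1 of 4 is not more than usual. Uhrf1, which guides DNMT1 to newly copied DNA, differed by 0.41 ± 0.40 and 0.20 ± 0.40 and did not pass. Kdm2a (−0.64 ± 0.43 and −0.14 ± 0.44) and Dppa3 (−0.32 ± 0.41 and 0.19 ± 0.42) did not pass either.

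Genes of the inflammasome that were in the table had few counts. Of 21 genes listed for inflammasomes and cytosolic sensors, 10 were in the table and between 2 and 4 had enough counts to be tested. The table was limited on MII values, so the listed genes absent from it have no reading in GV oocytes here. The summed level of the 10 was 2.95 to 24.4 CPM in vitrified MII, 7.88 to 20.1 CPM in fresh MII, 12.5 to 38.9 CPM in vitrified GV and 22.4 to 26.2 CPM in fresh GV oocytes, while Nlrp9b alone, the least abundant member in MII oocytes, averaged 221, 209, 185 and 164 CPM in these groups. Nlrp3 was at 0 in all 8 GV oocytes and in 10 of 12 MII oocytes of each treatment. Pycard, the adaptor, was at 0 in 11 of 12 MII oocytes of each treatment, in all 4 vitrified and in 3 of 4 fresh GV oocytes. Dhx9, the partner of Nlrp9b in mouse intestine, averaged 3.10 ± 2.57 CPM in vitrified MII, 4.10 ± 2.76 in fresh MII, 2.75 ± 1.37 in vitrified GV and 2.90 ± 1.72 CPM in fresh GV oocytes (SD, n = 12, 12, 4 and 4). Among the 4 sensors tested between the stages, Nod2 fell in MII oocytes of both treatments and Nod1 in those of vitrified follicles. Of all tested genes 57.0% were called in vitrified and 52.6% in fresh follicles. Nod1 was near the floor, at 3.54 ± 4.63 CPM in vitrified GV oocytes (SD, n = 4). It was at 0 in 2 of these 4 and in 10 of 12 vitrified MII oocytes.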

How the data were processed

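RNA of 32 single mouse oocytes was measured by sequencing, 1 library each. Per the submitters' processing notes, HISAT2 and featureCounts were used on mm10; versions are not stated there. The deposited values of GV oocytes are whole and were taken as counts; those deposited for MII oocytes are partly fractional and were treated as estimated counts, since no source used here states which step of the authors made them so. Because the design assumed counts, the values were rounded to whole numbers before any test. The table had 13202 entries; 27 exact repeats were removed, and every gene had a total of at least 10 in MII oocytes, so it had been limited on MII values. Depth was 5300208 to 17687247 counts per oocyte.

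The quasi-likelihood F test of edgeR 4.0.16 (R 4.3.3) was used, two-sided, with TMM scaling, filterByExpr (minimum count 10, total 15) and Benjamini-Hochberg adjustment over all genes at 0.05. Vitrified and fresh oocytes were compared in 1 fit per stage; the stages and the interaction came from 1 fit of all 32. The fits were tested on simulated counts. Alternatives were DESeq2 1.42.0, limma-voom (limma 3.58.1), other scalings and filters, unrounded values, library series, oocytes left out and a replicate block. Sequences came from GENCODE M21 transcripts (GRCm38) and RefSeq promoter windows (GRCm38.p6), aligned with Biopython 1.88. The members and gene lists were chosen with earlier results of these data known. Genes named are the 6 members, each measured other oocyte Nlrp gene, up to 4 genes with the smallest p from each other list, and the 3 genes most like each member whose log2 CPM averaged 4 or more; for brevity the marker lists are given as sums. Nlrp3, Pycard and Dhx9 were named for their known roles, outside this rule and after their values were seen.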

Additional observations from a re-analysis of the deposited data

Results flagged for a closer look

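Nlrp9a in vitrified GV oocyte 1 was far from the other 3 oocytes of its group: it had 975.5 CPM, against 295, 249 and 363 CPM in the others, and its gap to the nearest was 0.843 of the range of the group. The other 11 sets of 4 GV oocytes, over the 6 genes and both treatments, held no such value. Chance flags about 1 in 20 of single sets, so 1 flag among the 12 sets looked at is not unusual. The sets also share oocytes and are not independent. This oocyte was also the highest of the 8 GV oocytes for Nlrp4a, Nlrp4b, Nlrp9c and Nlrp14 but not for Nlrp9b, and its part in the differences between the GV groups is given by the values without it.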

How the results depend on the processing

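Over 17 to 43 alternatives per comparison, the number of the 6 genes called stayed at 0 for both vitrification comparisons and the interaction, and at 4 or 5 for both stage comparisons. Nlrp4a, Nlrp4b, Nlrp9a and Nlrp9c kept their direction and their call from GV to MII under every alternative run; their highest adjusted p was 0.0299, for Nlrp9c in vitrified follicles. Of the estimates that did not pass, some changed sign. Vitrified over fresh in MII oocytes, with library numbers of 20 and over only, was −0.12 for Nlrp4a, −0.26 for Nlrp4b, −0.19 for Nlrp9a, −0.22 for Nlrp9b and −0.093 for Nlrp9c; without scaling it was −0.00147 for Nlrp4b and −0.0609 for Nlrp9b. Without scaling, MII over GV for Nlrp9b was −0.24 in vitrified and −0.042 in fresh follicles. The interaction of Nlrp4a was −0.36 with library numbers of 20 and over and −0.042 without scaling, and that of Nlrp9b 0.15 with numbers under 20. Leaving out 1 oocyte, vitrified over fresh in GV oocytes ranged from −0.0037 to 0.36 for Nlrp4a, and the interaction from −0.11 to 0.25 for Nlrp4a and from −0.87 to 0.24 for Nlrp9c. The causes were not tested. Alternatives without scaling were chosen after seeing the data. Oocytes with the same replicate number deviated together in 2 of 4 GV pairs and 6 of 12 MII pairs (r over 0.1), those with the same library number in 2 of 3 and 3 of 9, and 1 oocyte of each stage correlated best with its own number in either case, so the numbers were not taken as pairs; with a replicate block 4 genes were called in each stage comparison and 0 in the others. The 95% intervals of the GV comparison, with 4 oocytes per group, were wider than those of the MII comparison with 12.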
